A study of Oryctolagus cuniculus with 12 samples.

Results

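ADAM12, PRSS35 and LRRC17 were 3 of the 29587 genes listed for the rabbit ear, and all 3 were among the 13287 genes that were tested, those whose FPKM averaged 1 or more. FPKM divides the fragments on a gene by its length and by the size of the library, so levels can be set side by side between genes. The 3 genes were taken by their symbols. They were chosen by these same FPKM values, because their levels were far higher in scar than in normal skin and stayed in part above normal skin after treatment, so these differences are given as a description and carry no test.

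The samples were full thickness ears of female wild-type (WT) rabbits, 10 to 12 weeks old when purchased, all harvested on day 43. In the scar groups this day was counted from skin resection, and the NS rabbits were not used for the scar model. Hypertrophic scar, a raised scar with excess collagen, forms on the rabbit ear after round wounds are cut, here 7 mm across and 4 to an ear. NS was normal ear skin of rabbits without treatment, and HS was scar left untreated. In the drug-loaded MNs group each lesion was given 1 microneedle patch. Its tips stay in the skin and release drug from a bound prodrug of 5-fluorouracil acetic acid. In the 5-Fu injection group each lesion was injected with 0.1 mL of a 5-fluorouracil solution (120 μg), an antimetabolite that blocks thymidylate synthesis. Both treatments were given on days 22, 29 and 36, and each group held 3 rabbits and 3 samples. Drug-free microneedles are not analysed here, so the patch and its drug cannot be told apart.

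ADAM12 (meltrin alpha) belongs to the ADAM family of cell surface proteins that carry a disintegrin and a metalloproteinase domain and release other proteins from the membrane. It is known for its transient appearance in mesenchymal and myogenic cells during injury and for cleaving insulin-like growth factor binding proteins. PRSS35 is a secreted protein with the fold of trypsin-like serine proteases whose catalytic serine is replaced, so it is named an inactive serine protease. LRRC17 is a secreted protein with leucine-rich repeats, described as an inhibitor of osteoclast formation driven by RANKL. COL1A1, the alpha 1 chain of type I collagen and the main collagen of scar, served as the reference for co-variation.

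ADAM12 (ENSOCUG00000008781) was placed on the minus strand of scaffold GL018726, from 521543 to 843857, with a gene length of 2715 bases for counting. PRSS35 (ENSOCUG00000004205) was placed on the plus strand of chromosome 12, from 70513198 to 70514439. Its length of 1242 bases equals this span, so the table holds it as 1 unbroken stretch. LRRC17 (ENSOCUG00000011161) was placed on the plus strand of chromosome 7, from 39352393 to 39396530, with a length of 2798 bases. The genome build behind these positions is not given in the sources used here. The nearest listed genes of ADAM12 and PRSS35 lay outside them, while the whole span of LRRC17 lay inside that of FBXL13 on the opposite strand.

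Depth ranged from 10521472 to 14043667 reads on genes per sample. Markers of full thickness skin were at high levels. The 3 fibroblast markers found in the table of 8 listed (DCN, LUM and DPT) summed to 610–847 FPKM in NS and 4436–5610 FPKM in HS, against 2599–3915 FPKM after the patch and 1173–3323 FPKM after the injection. The 10 keratinocyte markers found, of 12 listed, summed to 2463–4185, 1490–2122, 4012–9463 and 3061–5720 FPKM in the same order. The 10 cartilage markers found, of 12 listed, spread widely within groups, with sums of 522–5179 FPKM among the HS samples and 509–5768 FPKM among those injected with 5-Fu. In such bulk samples, fewer cells of a type and less RNA per cell cannot be told apart.

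ADAM12 rose from traces in normal skin to a high level in scar. Its level in NS was 0.567, 0.311 and 1.57 FPKM in replicates 1, 2 and 3, which rested on 20, 11 and 50 reads. In HS it was 79.0, 49.9 and 53.9 FPKM. The mean was 0.816 ± 0.665 FPKM in NS and 61.0 ± 15.8 FPKM in HS (SD, n = 3), a ratio of 74.7. ADAM12 was the most even of the 3 genes in HS, where its coefficient of variation was 25.9%. Without HS replicate 1, the highest, the ratio was 63.6.

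PRSS35 was about as low as ADAM12 in normal skin. It stood at 0.743, 0.433 and 1.17 FPKM in NS, from 12, 7 and 17 reads, so counting error was large there, and the 95% Poisson interval of replicate 2 reached from 0.174 to 0.892 FPKM. Its level in HS was 108, 28.4 and 45.4 FPKM. The means were 0.781 ± 0.368 FPKM in NS and 60.7 ± 42.1 FPKM in HS (SD, n = 3), a ratio of 77.8. HS replicate 1 stood well above the other two, and without it the ratio was 47.3.

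LRRC17 was the least even of the 3 genes in scar. NS held 2.61, 1.65 and 1.86 FPKM, and HS held 200.4, 42.0 and 38.1 FPKM. The means were 2.04 ± 0.507 and 93.5 ± 92.6 FPKM (SD, n = 3), a ratio of 45.9. Replicate 1 carried most of the HS mean, and the ratio without it was 19.6. The LRRC17 mean was above that of ADAM12 through this sample alone, and without it the means were 40.1 and 51.9 FPKM. The remaining HS samples were still far above every NS sample.

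The NS and HS samples of all 3 genes did not overlap, which was the case for 33.3% of all genes tested. On log2(FPKM + 1), the scale used for all differences below, the HS mean exceeded the NS mean by 5.12 for ADAM12, 4.92 for PRSS35 and 4.53 for LRRC17, against a median of -0.01 over all genes tested. These were ranks 1, 2 and 5 of 13287. Genes with a symbol close to them in this order were SFRP2 (4.72), a secreted modulator of Wnt signalling, LUM (4.48), a small proteoglycan of the collagen matrix, and THBS2 (4.42), a matrix glycoprotein. COL1A1 stood at rank 10 with 4.34.

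**Figure D1:**
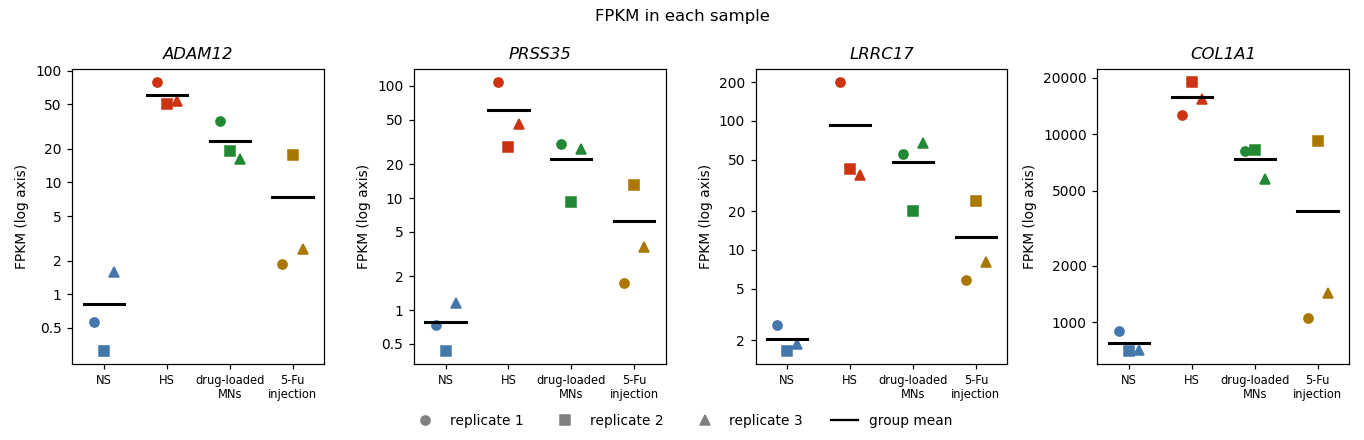
FPKM on a log axis of ADAM12, PRSS35, LRRC17 and COL1A1 in the 3 samples of each group, with the symbol giving the replicate and the black line the group mean. HS replicate 1 is the highest HS sample for the 3 genes but the lowest for COL1A1 (12719 FPKM), and 5-Fu injection replicate 2 lies far above replicates 1 and 3 in every panel.

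HS replicate 1 was thus the highest HS sample for all 3 genes, while for COL1A1 it was the lowest, at 12719 FPKM against 18970 and 15445 FPKM in replicates 2 and 3. The 3 genes and type I collagen therefore ordered the HS samples differently. The cartilage collagen COL2A1 was also lowest in this sample, at 247 FPKM against 612 and 3607 FPKM. The cartilage marker SOX9 was instead lowest in replicate 2, at 15.1 FPKM against 19.0 FPKM in replicate 1. The part of tissue makeup in this difference was not tested.

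FBXL13, which spans LRRC17 on the other strand, was likewise highest in HS replicate 1, at 3.32 FPKM (89 reads) against 0.532 and 0.625 FPKM. It lay between 0.133 and 0.934 FPKM in the other groups. Whether strand was used in counting is not given in the sources used here, so reads of FBXL13 and LRRC17 cannot be told apart. LRRC17 itself held 6056 reads in that sample. The neighbour of PRSS35, ME1, which makes cytosolic NADPH, lay 21394 bases away, and its mean FPKM was 5.06 and 12.6 in NS and HS and 15.0 and 5.02 after patches and injections.

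After drug-loaded MNs, the 3 genes stayed in every sample above the highest NS value. No overlap between these groups was seen for 20.6% of all genes tested. ADAM12 was at 35.4, 19.1 and 16.1 FPKM, a mean of 23.5 ± 10.4 (SD, n = 3). All of these lay under the lowest HS sample. The HS mean was 2.59 times as high.

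PRSS35 was at 30.2, 9.31 and 27.5 FPKM after drug-loaded MNs, with a mean of 22.3 ± 11.4 (SD, n = 3). Replicate 1 reached into the lower end of HS, just above HS replicate 2, and the other two lay under all HS samples. LRRC17 was at 55.4, 19.9 and 68.0 FPKM, with a mean of 47.8 ± 24.9 (SD, n = 3). Replicates 1 and 3 exceeded HS replicates 2 and 3. Of the 3 genes, then, 1 did not overlap with HS, beside 18.9% of all genes tested. The MNs mean was 28.9, 28.6 and 23.4 times the NS mean for ADAM12, PRSS35 and LRRC17, beside 9.58 times for COL1A1.

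After 5-Fu injection, replicates 1 and 3 lay far under replicate 2 in all 3 genes, but still above every NS sample. ADAM12 was at 1.86, 17.6 and 2.56 FPKM (mean 7.33 ± 8.88, SD, n = 3). PRSS35 was at 1.74, 13.1 and 3.67 FPKM (mean 6.18 ± 6.10), and LRRC17 was at 5.83, 24.0 and 8.05 FPKM (mean 12.6 ± 9.89). No sample overlapped with HS in any of the 3 genes, beside 30.3% of all genes tested. None overlapped with NS either, beside 18.8%, but ADAM12 in replicate 1 (63 reads) lay just above the 1.57 FPKM of NS replicate 3 (50 reads).

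The 5-Fu injection mean was 8.99 times the NS mean for ADAM12, 7.92 times for PRSS35 and 6.19 times for LRRC17. Replicate 2 decided these values, and without it they were 2.71, 3.46 and 3.40. COL1A1 behaved likewise, at 1053, 9220 and 1438 FPKM, with 5.06 times the NS mean and 1.61 times without replicate 2. The same replicate held the lowest COL2A1 of its group, at 260 FPKM against 4429 and 491. It also held the most MATN1, another cartilage marker, at 84.6 FPKM against 74.5 and 36.5. After drug-loaded MNs, replicate 3 held the most COL2A1, at 3738 FPKM against 541 and 1617, with the most LRRC17 and the least ADAM12. The part of tissue makeup was not tested.

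The 4 groups therefore had the same order of mean FPKM for all 3 genes, with NS lowest, then 5-Fu injection, drug-loaded MNs and HS. The neighbouring treated groups overlapped in all 3 genes, whereas 17.1% of all genes tested did not overlap between them. The contrast between the treated groups was tested with limma across all genes. The genes had not been chosen by this contrast, but the treated values took part in their choice, so the test is not fully independent of it. The difference, MNs minus 5-Fu, was 2.02 for ADAM12 (SE 0.60, 95% interval 0.70 to 3.33), with a limma adjusted p of 0.25. For PRSS35 it was 1.89 (SE 0.64, 0.49 to 3.29), with a limma adjusted p of 0.261. LRRC17 gave 1.91 (SE 0.67, 0.44 to 3.38) and a limma adjusted p of 0.272.

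None of the 3 genes passed the threshold, and of all genes tested 0.00% did. The paper's DESeq2 test did report genes between these groups at the same cutoffs, so the 0.00% holds for the limma fit used here. With no adjustment, 2009 genes had a p under 0.05, and limma voom called 0. The intervals reach from under 1 to over 3 on the log2 scale, so these samples do not show that the treatments left the genes at like levels. Over 9 other settings the limma adjusted p lay between 0.227 and 0.445 for ADAM12. Without 5-Fu injection replicate 2, ADAM12 passed, at a difference of 2.86 and a limma adjusted p of 0.0275.

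How far each treated sample had returned was expressed as the share of the way from the HS mean (0%) to the NS mean (100%). After drug-loaded MNs, the return of ADAM12 was 14.4, 31.1 and 35.6% in replicates 1, 2 and 3 (27.0 ± 11.2%, SD, n = 3). That of PRSS35 was 15.5, 48.1 and 18.3% (27.3 ± 18.0%). LRRC17 returned by 6.72, 38.3 and 0.334% (15.1 ± 20.3%), so in replicate 3 it stood at the HS mean.

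HS replicate 1 decided the value of LRRC17. Without it the HS mean was lower and the mean return of LRRC17 after drug-loaded MNs was -2.12%, so that the treated mean lay just beyond HS. On the linear FPKM scale the mean returns after drug-loaded MNs were 62.2% for ADAM12, 64.0% for PRSS35 and 50.0% for LRRC17, since a fall from a high level weighs more there.

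After 5-Fu injection, ADAM12 returned by 86.1, 33.3 and 79.9% (66.4 ± 28.8%, SD, n = 3). PRSS35 returned by 87.0, 38.8 and 71.3% (65.7 ± 24.6%). LRRC17 returned by 73.9, 32.7 and 65.0% (57.2 ± 21.7%). The return in replicate 2 was in the range seen after drug-loaded MNs, and without it the means were 83.0, 79.1 and 69.5%.

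**Figure D2:**
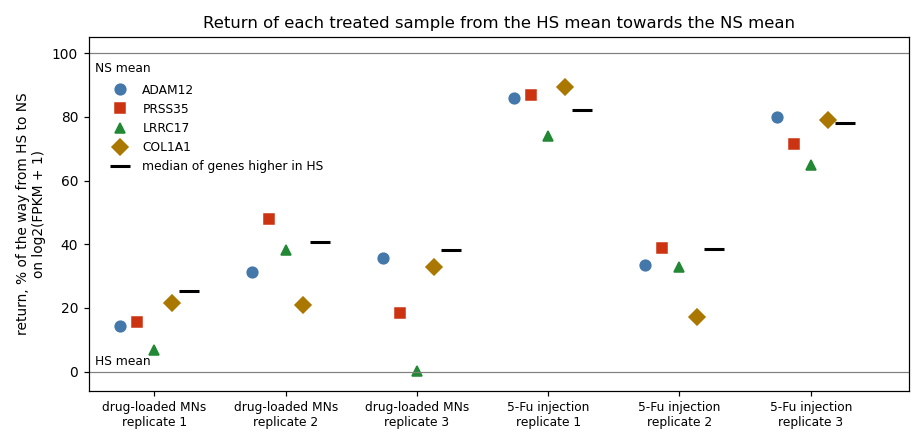
Return of ADAM12, PRSS35, LRRC17 and COL1A1 in each of the 6 treated samples, in percent of the way from the HS mean (0) to the NS mean (100) on log2(FPKM + 1), with the median of the 469 genes higher in HS as a black bar. LRRC17 lies under the black bar in all 6 samples, at 0.334% in drug-loaded MNs replicate 3.

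The 469 genes called higher in HS than in NS served as a background. The 3 genes are among them through the values that chose them, which is no test of the 3 genes. The median return of the 469 was 25.3, 40.8 and 38.1% after drug-loaded MNs and 82.0, 38.5 and 77.9% after the injection. LRRC17 lay under that median in 6 of 6 treated samples, ADAM12 in 4 and PRSS35 in 3. Persistence after treatment was part of the choice of the 3 genes, so these places are a description. For LRRC17 they also rest on an HS mean raised by HS replicate 1. By its mean return after drug-loaded MNs, 46 of the 469 genes had returned less than LRRC17, 146 less than ADAM12 and 150 less than PRSS35. After 5-Fu injection these counts were 164, 250 and 242. COL1A1 returned by 21.4, 21.0 and 32.8% and by 89.5, 17.3 and 79.1% in the samples of these groups. LRRC17 and PRSS35 each returned less than COL1A1 in 4 of 6 samples, and ADAM12 did so in 2.

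To set the genes against collagen within a sample, each level was divided by that of COL1A1. ADAM12 amounted to 0.633, 0.442 and 2.20 FPKM per 1000 FPKM of COL1A1 in NS and to 6.21, 2.63 and 3.49 in HS. The ratio was 4.35, 2.31 and 2.80 after drug-loaded MNs and 1.76, 1.91 and 1.78 after 5-Fu injection. ADAM12 thus kept a near constant ratio to COL1A1 across the 5-Fu injection samples, although both genes differed several-fold between them.

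PRSS35 amounted to 0.830, 0.614 and 1.63 FPKM per 1000 FPKM of COL1A1 in NS, and to 8.52, 1.50 and 2.94 in HS, where replicate 2 fell within the range of NS. It was 3.71, 1.13 and 4.75 after drug-loaded MNs and 1.65, 1.43 and 2.55 after 5-Fu injection. These ratios overlapped between all groups. The excess of PRSS35 over collagen in HS thus rested on replicates 1 and 3.

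LRRC17 amounted to 2.92, 2.34 and 2.60 FPKM per 1000 FPKM of COL1A1 in NS. In HS the ratio was 15.8, 2.22 and 2.47, so HS replicates 2 and 3 did not exceed NS and LRRC17 had kept pace with collagen there. It was 6.81, 2.41 and 11.8 after drug-loaded MNs and 5.54, 2.60 and 5.60 after 5-Fu injection. In both treated groups replicate 2 was at the level of NS and replicates 1 and 3 were above every NS sample and above HS replicates 2 and 3.

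**Figure D3:**
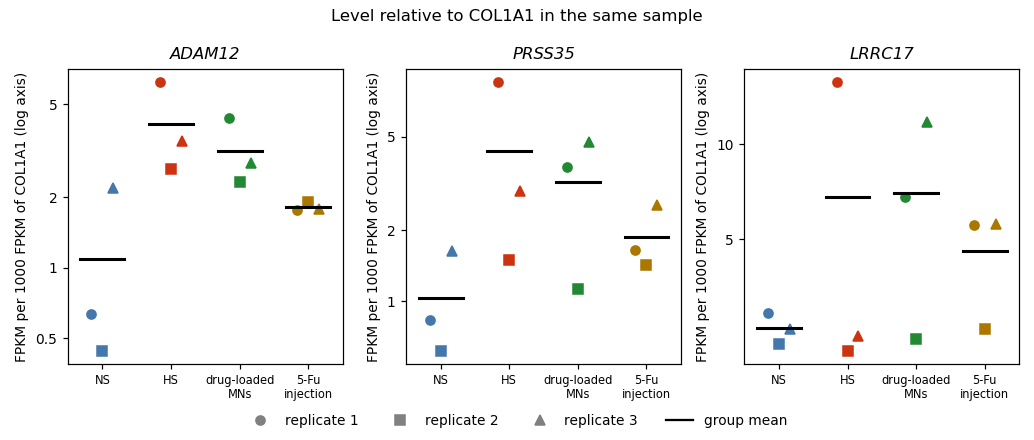
FPKM of ADAM12, PRSS35 and LRRC17 per 1000 FPKM of COL1A1 in the same sample, on a log axis, with the symbol giving the replicate and the black line the group mean. The ADAM12 ratio of the 5-Fu injection samples lies between 1.76 and 1.91, and the LRRC17 ratio of HS replicates 2 and 3 (2.22 and 2.47) lies at the level of NS.

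Co-variation with COL1A1 was tested over the 6 treated samples. ADAM12 had a Pearson's r of 0.966 (exact permutation p = 0.0167, two-sided, adjusted p = 0.05 over the 3 genes) and a Spearman's rho of 0.771 (exact permutation p = 0.103, adjusted 0.308). PRSS35 had an r of 0.848 (exact permutation p = 0.0528, adjusted 0.0792) and a rho of 0.543 (exact permutation p = 0.297, adjusted 0.356). LRRC17 had an r of 0.802 (exact permutation p = 0.0917, adjusted 0.0917) and a rho of 0.486 (exact permutation p = 0.356, adjusted 0.356).

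These relations rested on 5-Fu injection replicates 1 and 3, which stood apart from the other 4 samples. The permutations also exchange samples between the treated groups, so the p-values do not separate co-variation from treatment. Within the drug-loaded MNs group (n = 3) r was 0.637 for ADAM12, -0.464 for PRSS35 and -0.656 for LRRC17, and within the 5-Fu injection group (n = 3) it was 1.00, 0.982 and 0.997, given as a description. Without 5-Fu injection replicates 1 and 3, the farthest from the median of COL1A1, r was 0.302 for ADAM12, -0.563 for PRSS35 and -0.744 for LRRC17 over 4 samples. Over so few samples these values are a description. Drug-loaded MNs replicate 3 had the least COL1A1 of its group (5776 FPKM against 8140 and 8253) and the least ADAM12, but the most LRRC17.

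**Figure D4:**
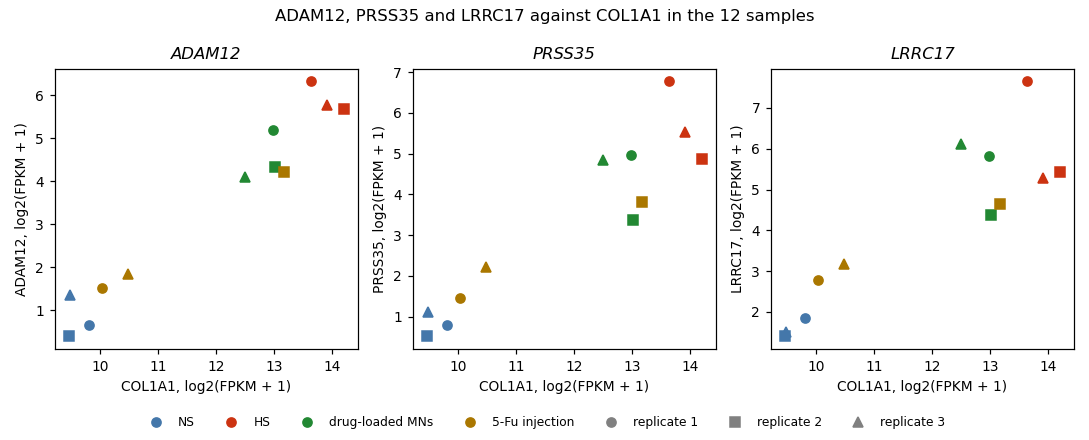
ADAM12, PRSS35 and LRRC17 against COL1A1 on log2(FPKM + 1) in the 12 samples, with colours for the groups and symbols for the replicates. The treated samples fall into a low pair, 5-Fu injection replicates 1 and 3, and 4 samples with high COL1A1, among which r was 0.302, -0.563 and -0.744.

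The genes whose pattern over the 12 samples was most like each of the 3 were found among genes with a symbol by Pearson's r on log2(FPKM + 1), a description that carries mostly the difference between the groups. For ADAM12 they were DCHS1 (0.991), a large protocadherin, ADAMTS2 (0.990), which trims the amino end of procollagen, COL5A2 (0.985), a chain of type V collagen, EDNRA (0.984), an endothelin receptor, and ANGPTL2 (0.981), a secreted angiopoietin-like protein, at ranks 1, 2, 4, 5 and 6. COL1A1 came at rank 16 of 13287 (0.975) and PRSS35 at rank 18 (0.973). LRRC17 came at rank 124 (0.937).

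For PRSS35 they were PTK7 (0.990), a receptor-like protein of Wnt signalling, NDNF (0.986), a secreted protein, CDH11 (0.984), a cadherin of mesenchymal cells, PXDN (0.981), a peroxidase that cross-links type IV collagen, and LRRC17 (0.980). For LRRC17 the list was headed by PRSS35 (0.980) and went on with HTRA1 (0.974), a secreted serine protease, NDNF (0.972), PTK7 (0.972) and PHETA2 (0.970), an endosomal protein. COL1A1 came at rank 113 for PRSS35 (0.927) and at rank 156 for LRRC17 (0.893). PRSS35 and LRRC17 thus shared PTK7 and NDNF, while COL1A1 was nearer to ADAM12 in this order.

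With the group means taken off, the r of the 12 deviations pooled over the groups was 0.920 between LRRC17 and PRSS35, 0.788 between ADAM12 and PRSS35 and 0.612 between ADAM12 and LRRC17. Against COL1A1 it was 0.837 for ADAM12, 0.511 for PRSS35 and 0.362 for LRRC17. For ADAM12 and COL1A1 the 5-Fu injection samples deviated most, ADAM12 by -1.01, 1.69 and -0.69 and COL1A1 by -1.19, 1.94 and -0.74. LRRC17 deviated most in HS, by 1.53, -0.70 and -0.83, against -0.76, 1.11 and -0.35 after 5-Fu injection. HS replicate 1 thus weighed heavily in the values of LRRC17. In HS the deviations of ADAM12 (0.40, -0.25 and -0.15) and COL1A1 (-0.29, 0.29 and -0.01) had opposite signs in replicates 1 and 2 only. Tissue makeup is shared by all genes of a sample and its part was not tested.

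The families and pathways around the 3 genes were then counted in lists that left the 3 genes out, with calls at a limma adjusted p under 0.05 and an absolute log2 difference above 1. Of 13287 genes, 5.00% were called between HS and NS, 3.53% higher and 1.48% lower. In the ADAM and ADAMTS list, 8 of 21 tested genes rose in HS and 0 fell, with a median of 0.74 over the list. ADAMTS17 rose by 2.94 (SE 0.44, limma adjusted p = 0.00377). ADAMTS2 rose by 2.57, and ADAMTS5, which cleaves aggrecan and versican, by 1.75. ADAMTS12 rose by 1.65. ADAM19, a close relative of ADAM12 (meltrin beta), rose by 1.40 (limma adjusted p = 0.0274). The calls of ADAMTS17, ADAMTS2 and ADAMTS5 held with each of the 12 samples left out in turn, while ADAMTS12 lost its call without any of the NS replicates or HS replicate 2 or 3, and ADAM19 without any of the NS replicates or HS replicate 1. ADAM19 was also not called with no filter on low values or with only HS and NS in the fit. The largest difference in the list was 2.94, against 5.12 for ADAM12. The 8 calls became 5 when NS replicate 1, 2 or 3 was left out, and with FPKM rescaled to the total of reads 7 rose and 1 fell.

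Among the proteins that ADAM12 is known to cleave or bind, of 18 tested, 0 rose and 1 fell, with a median of 0.05. The gene that fell was HBEGF, a growth factor shed from the membrane (-1.01, limma adjusted p = 0.0225). This call was lost without NS replicate 1 or 3 or without HS replicate 2 or 3, with quantile normalization and with only HS and NS in the fit, and 2 genes were called without 5-Fu injection replicate 1. IGFBP5, a binding protein of insulin-like growth factors, differed by 0.73 (limma adjusted p = 0.179) and SH3PXD2A, a podosome scaffold that binds ADAM12, by 0.80 (limma adjusted p = 0.0870). IGFBP3 was not matched to a gene of the table by name and is not reported.

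Among serine proteases and their serpin inhibitors, the list nearest to PRSS35, 3 of 23 rose and 1 fell, with a median of 0.08, and 3 rose and 3 fell with rescaled FPKM. CMA1, the chymase of mast cells, rose by 2.73, HTRA1 by 2.44 and SERPINF1, an inhibitor of vessel growth, by 1.99. SERPINE2, an inhibitor of thrombin, fell by 1.91 (limma adjusted p = 0.0385). The 3 genes that rose were called with each of the 12 samples left out in turn. The call of SERPINE2 was lost in 7 of these 12 fits (any NS replicate, HS replicate 1 or 2, drug-loaded MNs replicate 2 or 3) and with no filter on low values. PRSS23, a close relative of PRSS35, differed by 1.11 (limma adjusted p = 0.124).

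Among surface and secreted leucine-rich repeat proteins, the list nearest to LRRC17, 7 of 26 rose and 1 fell, with a median of 0.49, and 4 rose and 3 fell with rescaled FPKM. LGR5, a receptor for R-spondins, rose by 3.13, PXDN by 2.58, LRRC15, a protein of activated fibroblasts, by 2.28 and RTN4RL1, a relative of the Nogo receptor, by 1.41. LRRN2 fell by 1.34 (limma adjusted p = 0.0480). LGR5 and PXDN kept their calls with each of the 12 samples left out in turn. LRRC15 lost its call without any of the HS replicates or NS replicate 2, and RTN4RL1 in 8 of the 12 fits, all but those without HS replicate 2 or 5-Fu injection replicate 1, 2 or 3. The fall of LRRN2 was called in only the fits without 5-Fu injection replicate 1 or 2, and was lost in the other 10, with limma voom, with no filter, with only HS and NS in the fit and under the replicate block. LRRC15 and RTN4RL1 were also not called with no filter or under the replicate block. RTN4RL1 further lost its call with rescaled FPKM and with only HS and NS in the fit. The 8 calls of the list became 5 without NS replicate 1, 4 without NS replicate 2 or HS replicate 2, and 3 without HS replicate 3.

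The RANKL and osteoclast list, which holds the pathway that LRRC17 is known to restrain, had 1 of 14 tested genes higher in HS and 0 lower, with a median of 0.15. The gene was CTSK, a collagen-degrading protease of osteoclasts and fibroblasts (1.65, limma adjusted p = 0.0156), and it was lost without NS replicate 1 or HS replicate 2, while 2 genes were called without HS replicate 1. RANKL itself (TNFSF11) was too low to be tested, at a mean of 0.0557 FPKM in NS and 0.0561 FPKM in HS. Its decoy receptor TNFRSF11B differed by -0.14 (limma adjusted p = 0.855). The macrophage and osteoclast markers in the table summed to 331 to 506 FPKM in NS and 853 to 1317 in HS, of which CTSK alone was 213 to 337 and 658 to 953 FPKM. Of the 8 tested, 1 was called higher, and their part was not tested.

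The genes of activated fibroblasts moved most. Of 21 tested, 15 rose in HS and 0 fell, with a median of 2.90, led by SFRP2, THBS2, COL1A1 and COL1A2 (4.18). The fibroblast markers DCN and LUM rose too by the same rule, so that 2 of the 3 fibroblast markers found in the table, of 8 listed, were higher in HS. Their part in the rise of ADAM12, PRSS35 and LRRC17 was not tested. Skeletal muscle, where ADAM12 is also known, was little present. Its 10 markers found in the table, of 12 listed, summed to 10.7 to 74.5 FPKM in NS and 5.96 to 9.62 FPKM in HS, with MYOG and MYF5 at 0 in all samples. NS replicate 3, the NS sample with the most ADAM12, also held the most ACTA1 of its group, at 44.2 FPKM against 5.56 and 3.10. It stood out for smooth muscle markers as well, with MYH11 at 470 FPKM against 74.6 and 53.6 and DES at 479 FPKM against 136 and 98.5. PRSS35 was also highest in this NS sample, and the part of tissue makeup was not tested.

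**Figure D5:**
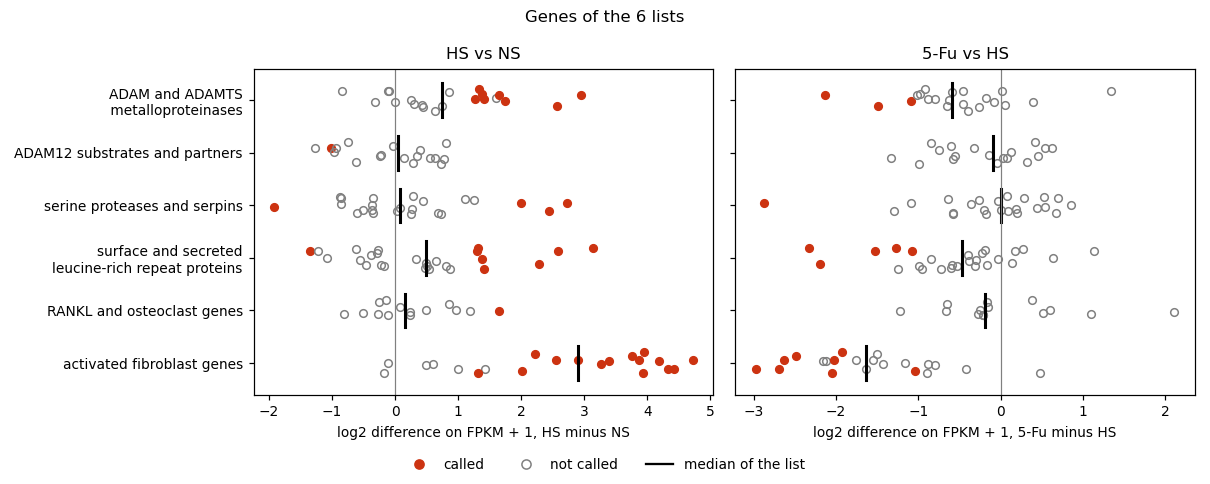
Log2 difference on FPKM + 1 of each tested gene of the 6 lists for HS minus NS and for 5-Fu injection minus HS, filled where called (limma adjusted p under 0.05 and an absolute difference above 1), with the list median as a black line and vertical scatter for legibility only. The activated fibroblast genes lie farthest to the right in HS minus NS (median 2.90), and all 17 genes called in 5-Fu injection minus HS lie under 0.

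After treatment, the calls in these lists differed in number between the agents. Between drug-loaded MNs and HS, 0 of the 123 tested genes of all lists were called, beside 0.00753% of all genes, and limma voom called 0. At an unadjusted p under 0.05 were 21 of them, 14 of these lower, and 1183 of all 13287 genes. Between 5-Fu injection and HS, 17 fell and 0 rose, beside 1.78% lower and 0.512% higher of all genes (2.29% in either direction). They included THBS2 (-2.97), CMA1 (-2.88), COL1A1 (-2.69), ASPN (-2.63), a small proteoglycan, COL5A2 (-2.49), LGR5 (-2.32), LRRC15 (-2.19), ADAMTS17 (-2.13), PXDN (-1.53), ADAMTS2 (-1.49), SLIT3 (-1.27), a guidance ligand, and ADAMTS5 (-1.09).

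Against NS, 16 of the 123 genes were called after drug-loaded MNs, all of them higher, beside 0.790% higher and 0.0828% lower of all genes (0.873% in either direction). The activated fibroblast list gave 11 of these and the ADAM and ADAMTS list 2. After 5-Fu injection 0 of the 123 were called against NS, beside 0.00753% of all genes, with 29 of them and 1981 of all genes at an unadjusted p under 0.05 and 0 of the 123 by limma voom. The calls of the treated groups against NS share the NS samples and were not compared by a test.

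The count of 17 moved with single libraries. It was 8 without NS replicate 1 or drug-loaded MNs replicate 2, 2 without 5-Fu injection replicate 1, 1 without HS replicate 1 or 5-Fu injection replicate 3, 0 without HS replicate 2 or HS replicate 3, and 33 without 5-Fu injection replicate 2. Directly between the treated groups, 0 of 123 were called, with 38 at an unadjusted p under 0.05 and 0 by limma voom, and 3 were called without 5-Fu injection replicate 2. The treatments were thus not shown to differ in these genes by that test.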

How the data were processed

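Bulk RNA-seq was performed on poly-A selected RNA of 12 ear samples, grouped by their labels. The values deposited by the authors were FPKM, and the aligner, counter and genome build are not given in the sources used here. Multiplied by gene length, 100% of low values were whole reads within 0.01 read. The library size inside the FPKM exceeded the reads on genes in NS (1.12–1.20 times) and fell short of them in HS (0.873–0.932 times).

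The values were analysed with limma 3.58.1 in R 4.3.3 on log2(FPKM + 1), in 1 model of the 4 groups with a trended variance prior. Benjamini-Hochberg adjustment covered the 13287 genes averaging 1 FPKM or more. The authors deposited FPKM, and their DESeq2 test on counts was not rerun. Reads counted back from the FPKM were used for limma voom as an alternative. At the same cutoffs the authors reported genes for drug-loaded MNs against HS and against 5-Fu injection, where limma called 1 and 0 genes. The procedure was tested on simulated data. Correlations used exact permutation tests. For 15 list genes the name came from the description. The 3 genes and the lists were chosen with earlier results of these data known. Named list genes were up to 4 called genes with the largest change in each direction, plus genes always named, the 5 most alike genes with a symbol and 3 neighbours in rank. Replicate numbers did not pair samples, since the rabbits differed between groups. Alternatives covered pseudocount, filter, scaling, trend, samples in the fit, limma voom, replicate block and each replicate left out. P-values measure the spread between these samples. Poisson intervals cover counting error only. Of 161 list genes, 123 were found and tested. Of the tested genes that were always to be named, 1 is not reported here.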

Additional observations from a re-analysis of the deposited data

How the results depend on the processing

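Of 390 alternative values over 24 results, 345 kept their direction and their side of the threshold, or stayed near the reported value. This tally is not a measure of robustness, since part of its values had little room to move. HS minus NS and the returns belong to genes that were chosen by these same FPKM values. Leaving out an NS or HS sample cannot change the MNs minus 5-Fu difference, only its adjusted p. A pseudocount of 0.1 raised HS minus NS to 6.28 for ADAM12 and 5.97 for PRSS35. On the linear FPKM scale the return after drug-loaded MNs was 62.2% (ADAM12), 64.0% (PRSS35) and 50.0% (LRRC17), and after 5-Fu injection 91.0% (PRSS35) and 88.4% (LRRC17). Correlation with COL1A1 passed the threshold for ADAM12 with a pseudocount of 0.1 (0.971), quantile normalization (0.969) and FPKM rescaled to the total of reads (0.966), and without the pair farthest from the COL1A1 median it reversed for PRSS35 (-0.563) and LRRC17 (-0.744). The ADAM12 substrate list had 0 calls with quantile normalization and 4 with rescaled FPKM, which moved the median of all genes between HS and NS to -0.33 (HS minus NS relative to it was 5.22, 5.01 and 4.57 for ADAM12, PRSS35 and LRRC17). The leucine-rich repeat list had 5 calls without a filter on low values. Lists together, 5-Fu injection against HS, had 6 without a filter and 0 with only the groups compared. With the replicate number as a block, these counts were 5 and 6, and ADAM12 between the treated groups had a limma adjusted p of 0.309. Deviations of same-numbered samples had mean correlations of -0.19 to 0.12, so the numbers are not a pairing. The cause of these changes was not tested.

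With each replicate left out in turn, HS minus NS was 4.92 to 5.40 (ADAM12), 4.39 to 5.34 (PRSS35) and 3.77 to 4.95 (LRRC17). Returns after drug-loaded MNs were 22.8 to 33.4%, 16.9 to 33.2% and -2.12 to 22.5%, and after 5-Fu injection 56.6 to 83.0%, 55.1 to 79.1% and 48.5 to 69.5%. MNs minus 5-Fu was 1.51 to 2.86, 1.37 to 2.55 and 1.53 to 2.46. Called genes ranged from 5 to 9 (ADAM and ADAMTS), 0 to 2 (substrates), 3 to 5 (serine proteases), 3 to 8 (leucine-rich repeats), 0 to 2 (RANKL), 12 to 16 (activated fibroblast), and for all lists from 0 to 33 (5-Fu injection against HS) and 0 to 3 (MNs against 5-Fu). Depth limits PRSS35 and ADAM12 in NS, where 7 to 50 reads stand behind each value.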
